A study of Mus musculus with 6 samples.

Results

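The genes examined encode the interferon gamma receptor, Janus kinases (JAKs), STAT transcription factors and SOCS inhibitors. They are Ifngr1, Ifngr2, Jak1, Jak2, Tyk2, Stat2, Stat3, Socs1 and Socs3, picked by gene symbol. All 9 have a row among the 16583 genes of the expression table, and all 9 were among the 11656 genes with enough counts to be tested. The cells were MC38, a mouse line labelled as colorectal cancer. The knockout group, KOSRC1, held 3 libraries whose titles name a knockout of the coactivator SRC-1 (gene Ncoa1). The control group, KOCtrl, held 3 libraries with the genotype Ctrl. Every culture in both groups had been exposed to interferon gamma (100 ng/mL) over 24 hours before RNA was taken. The comparison therefore describes a pathway that was already stimulated in KOSRC1 and KOCtrl alike, and no unstimulated library was analysed here. The study's stated question was how SRC-1 raises the expression of PD-L1, a checkpoint ligand that interferon gamma induces.

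Interferon gamma binds IFNGR1 and signals through IFNGR2, which carry the kinases JAK1 and JAK2. These kinases phosphorylate STAT proteins, and STAT dimers enter the nucleus and bind palindromic GAS elements. TYK2 and STAT2 serve mainly the type I interferon receptor, and STAT2 with IRF9 forms the ISGF3 complex, which binds interferon-stimulated response elements (ISREs). STAT3 is the main STAT downstream of the interleukin 6 family. SOCS1 and SOCS3 are inhibitors that block JAK activity, and their own genes are induced by the signals they restrain.

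The promoters of the inhibitor genes and of Stat2 are shown because they hold motifs read by these factors. RefSeq promoter sequence on GRCm38.p6 was found for all 9 genes and was searched on both strands over the 250 bases before 1 transcript start per gene, the one the promoter table gives. For Jak1, Tyk2, Stat3 and Socs3 that start lies inside the gene span printed below, since the annotated gene begins farther upstream, and the whole Socs3 window lies inside it. The letters searched were TTCNNNGAA for a GAS element, TTCNNNNGAA for the same palindrome with a longer spacer, and GAAANNGAAA (TTTCNNTTTC on the other strand) for the core of an ISRE. In the sequences, capitals mark the matches. The Socs1 window (chr16:10785537-10785786, minus strand) held 2 overlapping ISRE cores between 83 and 68 bases before the start.
Socs1: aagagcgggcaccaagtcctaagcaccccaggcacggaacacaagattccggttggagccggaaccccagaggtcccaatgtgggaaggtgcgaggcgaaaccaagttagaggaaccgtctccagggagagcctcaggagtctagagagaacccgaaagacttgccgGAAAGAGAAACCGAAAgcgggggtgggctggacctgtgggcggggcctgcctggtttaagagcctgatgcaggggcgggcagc
The Stat2 window (chr10:128270248-128270497, plus strand) held 1 ISRE core between 222 and 213 bases before the start, followed by 1 long-spacer palindrome.
Stat2: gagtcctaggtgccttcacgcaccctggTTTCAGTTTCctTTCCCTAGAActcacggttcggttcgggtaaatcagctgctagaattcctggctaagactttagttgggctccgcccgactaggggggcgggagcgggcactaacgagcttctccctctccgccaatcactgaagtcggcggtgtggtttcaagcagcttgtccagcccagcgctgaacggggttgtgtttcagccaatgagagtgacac
The only GAS match among the 9 windows lay in Socs3, between 154 and 146 bases before the start used and within the gene span (30 bases shown, chr11:117969501-117969530, minus strand).
Socs3: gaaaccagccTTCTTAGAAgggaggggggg
A long-spacer palindrome also lay in Ifngr2, between 91 and 82 bases before the start (chr16:91546958-91546987, plus strand).
Ifngr2: ggggccgcggTTCCCGGGAAcaccggggaa
Of 32851 promoter windows of this length, 7.02% held the GAS letters, 5.85% the long-spacer palindrome and 2.98% the ISRE core. The 2 members with an ISRE core, Socs1 and Stat2, went in opposite directions in the knockout, as described below. A match describes letters only, and no binding was measured.

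The libraries held 16329459 to 17207625 expected counts, and the 9 genes themselves had between 451 (Socs3) and 10674 (Stat2) counts per library. Levels are given as CPM, the TMM-scaled count relative to library size, and, where genes are compared with each other, as TPM, which also corrects for transcript length. Ncoa1, the targeted gene, had 16.7, 10.1 and 16.1 CPM in KOSRC1 and 18.2, 18.5 and 18.0 CPM in KOCtrl, a difference that was not called (-0.35 on the log2 scale, SE 0.184, edgeR adjusted p = 0.179). Its mRNA therefore does not check the labels, and the labels do not say whether the line is a clone or a pool. The genotype field also reads KOSRC-2 and KOSRC-3 for replicates 2 and 3, whereas their titles read KOSRC-1. The titles were followed here. Whether the field gives a replicate number or a different target was not tested. KOSRC1 replicate 2 stood apart, correlating with replicates 1 and 3 at 0.978 and 0.981 in log2 CPM across genes, against 0.996 between those and 0.994 to 0.995 among the controls. Of 9 epithelial markers, 8 have a row, and their summed level was 0.762 to 1.08 CPM in KOSRC1 and 1.17 to 1.48 CPM in KOCtrl, most of it Krt8, the 1 of them tested and not called. Epcam, Krt18 and Krt19 had 0 counts in KOSRC1 and 1 count each in KOCtrl, so the defining markers of a colorectal epithelium are essentially absent from these RNA profiles. Haematopoietic markers (7 of 8 with a row) summed to 4.22 to 6.48 CPM in KOSRC1 and 10.3 to 12.4 CPM in KOCtrl, most of it Cd68. Both tested markers, Cd68 and Lyz2, fell, Lyz2 on only 13 counts in KOSRC1 and 42 in KOCtrl. The pan-leukocyte gene Ptprc was at a mean of 0.02 CPM in KOSRC1 and 0.138 CPM in KOCtrl, on 1 and 7 counts. Stromal and endothelial markers (8 of 8) summed to 76.4 to 105 CPM in KOSRC1 and 88.3 to 104 CPM in KOCtrl, most of it Pdgfra; Pdgfrb fell and the other 2 tested were not called. Over all tested genes, 17.1% were called as higher and 18.5% as lower. The part of any other cell type in the results below was not tested.

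Across the 9 genes, 4 rose in the knockout (Ifngr2, Tyk2, Stat3 and Socs1), 1 fell (Stat2) and 4 were not called (Ifngr1, Jak1, Jak2 and Socs3). A gene is called when its edgeR adjusted p is under 0.05. Over all tested genes, 35.7% were called, 17.1% as higher and 18.5% as lower. The median log2 fold change of the 9 was 0.214, against 0.016 over all tested genes, and the median size regardless of sign was 0.288 against 0.281. DESeq2 made the same 5 calls, among 33.6% of all genes (16.2% higher and 17.4% lower). On simulated data, 20.31% of DESeq2 calls and 8.44% of edgeR calls were false, both above the 0.05 aimed at. Of simulated 1.5-fold changes, edgeR recovered 53%. The simulation changed far fewer genes than were called here and held no library standing apart, so these shares may not carry over. The CPM values of the groups did not overlap for 6 of the 9, against 51.3% of all tested genes: 5 lay wholly higher in KOSRC1 (24.8% of all genes) and 1 wholly lower (26.5%). Without KOSRC1 replicate 2, described above as standing apart, 6 of the 9 rose and 1 fell, where 34.6% of all genes were called as higher and 35% as lower. Once trends with transcript length and GC content had been taken out of each library (length-GC correction), 5 rose and 1 fell, where 24.3% of all genes were called as higher and 25.6% as lower, 49.9% in all. In limma on log2(TPM + 1), 3 rose and none fell, where 13.5% were called as higher and 14.7% as lower, 28.2% in all.

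**Figure D1:**
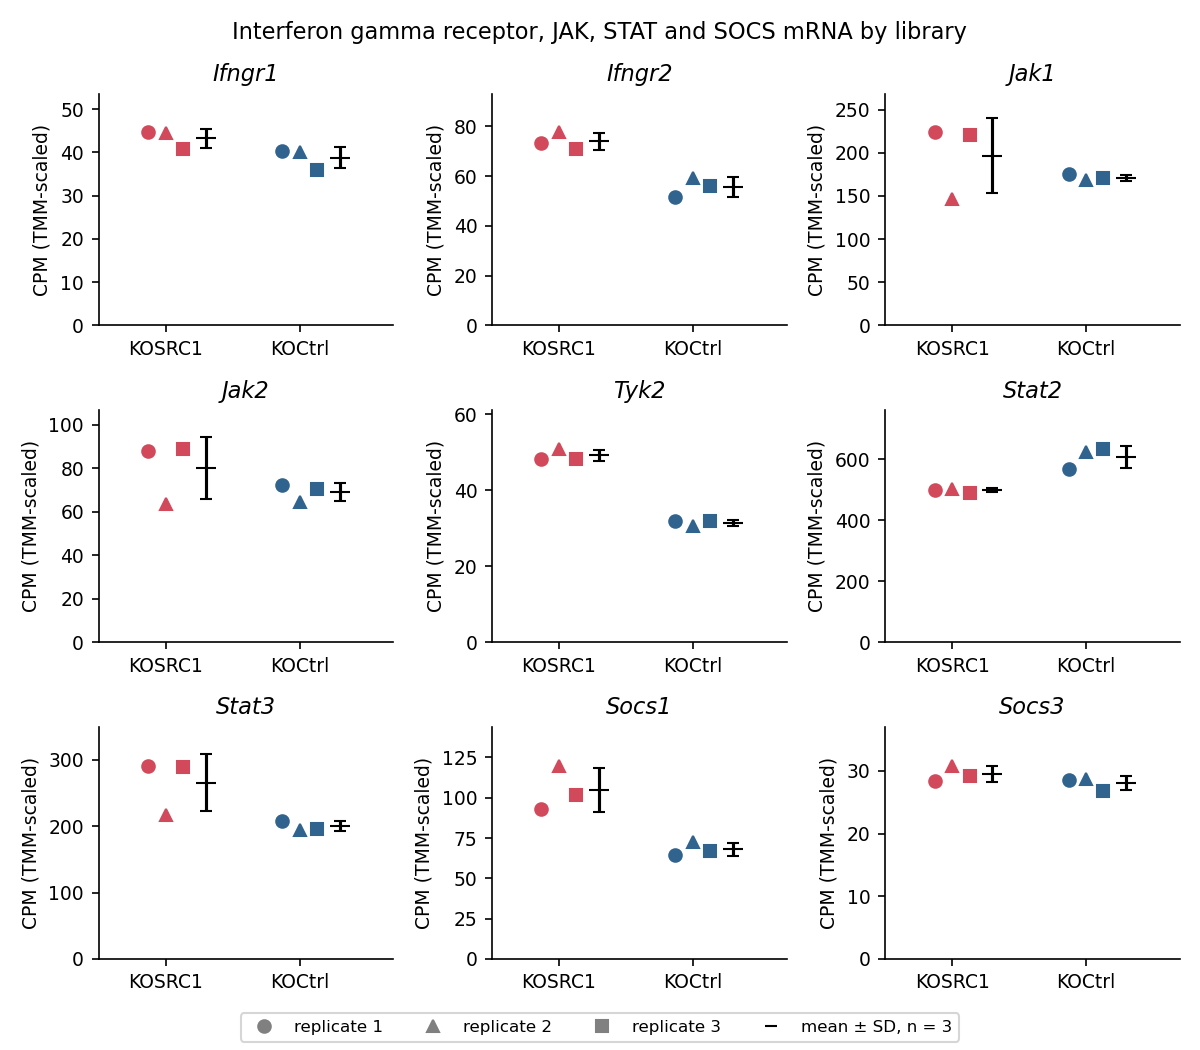
Level of each gene in every library, in CPM on an axis from 0, with KOSRC1 left and KOCtrl right; marker shapes give the replicate number and black bars the mean ± SD of 3 libraries. Tyk2, Socs1 and Ifngr2 lie clearly higher in all 3 KOSRC1 libraries, Stat2 lies lower, and KOSRC1 replicate 2 sits apart from replicates 1 and 3 for Jak1, Jak2 and Stat3.

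The receptor chains were examined first. Ifngr1 (gene 15979, chromosome 10, 19591949 to 19610229), which encodes the ligand-binding chain, had 44.7, 44.4 and 40.8 CPM in KOSRC1 and 40.2, 40.1 and 36.0 CPM in KOCtrl. Every knockout value was above every control value, but by less than 1 CPM at the closest point, and the difference was not called (log2 fold change 0.16, SE 0.0862, 95% interval -0.04 to 0.36, edgeR adjusted p = 0.191). After length-GC correction, Ifngr1 was called as higher (log2 fold change 0.25, edgeR adjusted p = 0.0226). Ifngr2 (gene 15980, chromosome 16, 91547059 to 91564007) encodes the chain that brings in JAK2. It had 73.3, 77.7 and 71.0 CPM in KOSRC1 and 51.6, 59.3 and 56.0 CPM in KOCtrl. The groups were well separated, and Ifngr2 was 1.33-fold higher in the knockout (log2 fold change 0.41, SE 0.0842, edgeR adjusted p = 0.00854). Per transcript length, Ifngr1 made up 36.8% ± 0.833 of the receptor TPM in KOSRC1 and 41.0% ± 2.42 in KOCtrl (SD, n = 3 each). The shares did not overlap, and the exact two-sided permutation test gave p = 0.1, the smallest that 3 against 3 libraries allow (adjusted over 6 such shares, 0.12).

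Ifngr2 lies in a cluster of cytokine receptor genes on chromosome 16, in the order Ifnar2, Il10rb, Ifnar1 and Ifngr2, between 91372783 and 91564007. Ifnar1, which encodes a chain of the type I interferon receptor, had 79.1, 73.2 and 77.1 CPM in KOSRC1 and 44.4, 45.2 and 50.1 CPM in KOCtrl, a 1.64-fold rise (edgeR adjusted p = 0.000811). Its neighbours Ifnar2 and Il10rb, chosen after their values were seen, had log2 fold changes of 0.04 and 0.13 and were not called. Of the 5 interferon receptor genes tested, 2 rose and 3 were not called, and the median log2 fold change was 0.159. Over all tested genes, 17.1% were called as higher. The counts were the same without KOSRC1 replicate 2, where 34.6% of all genes were called as higher. After length-GC correction 3 rose, where 24.3% of all genes were called as higher. Chromosome 16 as a whole was shifted: the median of its 355 tested genes was 0.233 on the log2 scale, the largest of any chromosome, and 36.3% of them were called as higher. Within 5 Mb of Ifngr2, 47 other tested genes had a median of 0.239, with 19 higher and 2 lower. How much of the Ifngr2 rise goes with that shift was not tested.

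**Figure D2:**
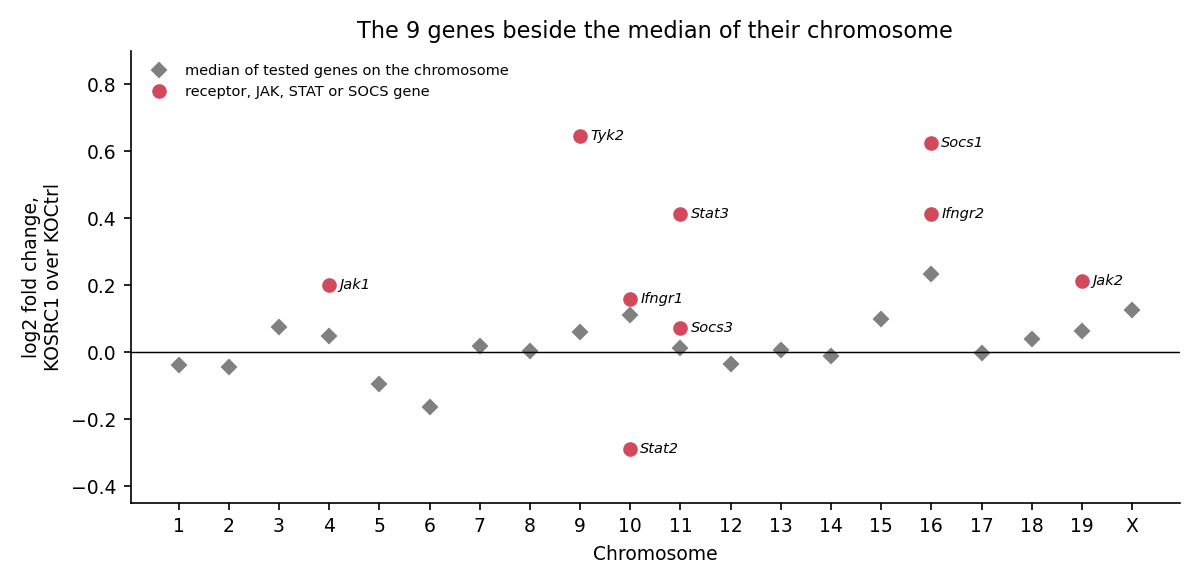
Log2 fold change of KOSRC1 over KOCtrl (y axis) by chromosome (x axis), with red points for the 9 genes and grey diamonds for the median of all tested genes on that chromosome. Ifngr2 (0.41) and Socs1 (0.62) are both on chromosome 16, whose median is 0.233; Tyk2 (0.65) is on chromosome 9, whose median is 0.060.

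Among the kinases, Tyk2 alone was called. Tyk2 (gene 54721, chromosome 9, 21104068 to 21131393) had 48.3, 50.9 and 48.4 CPM in KOSRC1 and 31.8, 30.5 and 32.0 CPM in KOCtrl. The replicates of each group lay close together, and Tyk2 was 1.56-fold higher in the knockout (log2 fold change 0.65, SE 0.0753, 95% interval 0.47 to 0.82, edgeR adjusted p = 0.000853). An antisense gene, 1700084C06Rik, covers 8.07% of the annotated Tyk2 exon bases on the other strand, and the kit is not stated to keep the strand, so reads in that stretch cannot be told apart. Jak1 (gene 16451, chromosome 4, 101151974 to 101265282), the kinase on IFNGR1, had 224, 146 and 220 CPM in KOSRC1 and 175, 168 and 171 CPM in KOCtrl. Replicates 1 and 3 of the knockout lay above all controls and replicate 2 lay below them. The difference was not called (log2 fold change 0.20, SE 0.159, 95% interval -0.17 to 0.57, edgeR adjusted p = 0.358).

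Jak2 (gene 16452, chromosome 19, 29251803 to 29313095), the kinase on IFNGR2, showed the same split. It had 87.8, 63.8 and 88.9 CPM in KOSRC1 and 72.4, 64.5 and 70.5 CPM in KOCtrl (log2 fold change 0.21, SE 0.137, edgeR adjusted p = 0.261). Without KOSRC1 replicate 2 the log2 fold changes were 0.37 for Jak1 and 0.35 for Jak2, with edgeR adjusted p of 3.82e-08 and 2.75e-06, in a fit that called 69.6% of all genes. After length-GC correction of all 6 libraries, Jak1 was at 0.30 and Jak2 at 0.07, and neither was called (edgeR adjusted p = 0.242 and 0.371). Jak1 and Jak2 were called only in the fit without KOSRC1 replicate 2, and the size of the Jak2 difference also changed with length-GC correction. The cause was not tested. Tyk2 was 0.62, 0.70 and 0.62 above the control mean in KOSRC1 replicates 1, 2 and 3 on the log2 scale.

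Per transcript length, Jak1 was the most abundant of the 3 kinases and Tyk2 the least in every library. Tyk2 stood at 15.9 ± 1.14 TPM in KOSRC1 and 9.77 ± 0.487 TPM in KOCtrl (SD, n = 3 each). Its share of the summed kinase TPM was 14.3%, 20.9% and 14.4% in KOSRC1 and 11.8%, 12.1% and 12.2% in KOCtrl. The groups did not overlap, and the exact permutation p was 0.1, the smallest possible; the mean difference without KOSRC1 replicate 2 was 2.33 percentage points. The Jak1 share was 57.9% ± 4.09 in KOSRC1 and 60.8% ± 0.687 in KOCtrl, with overlap between the groups (exact permutation p = 0.3), and the mean difference of -2.85 percentage points was -0.50 without KOSRC1 replicate 2. The Tyk2 and Jak2 shares were added after the data were seen, and the Jak2 share was 25.5% ± 0.439 in KOSRC1 and 27.2% ± 0.716 in KOCtrl, without overlap (exact permutation p = 0.1). The 3 shares are parts of the same sum, so a higher Tyk2 share lowers the other kinases' joint share and these are not separate results. Jak2 itself had a mean of 25.5 TPM in KOSRC1 and 22.05 TPM in KOCtrl, with overlap between the groups.

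**Figure D3:**
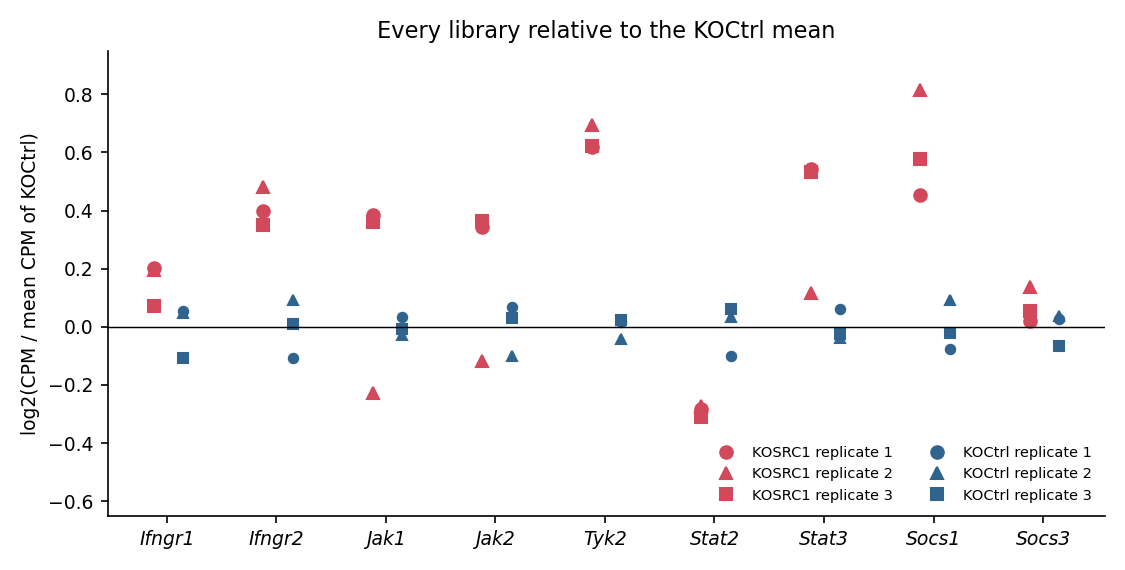
CPM of every library relative to the mean of the 3 KOCtrl libraries, on the log2 scale (y axis), for each gene (x axis); red marks are KOSRC1 and blue marks KOCtrl, and shapes give the replicate number. For Tyk2 and Stat2 the 3 KOSRC1 libraries nearly coincide, whereas KOSRC1 replicate 2 is at -0.23 for Jak1 and -0.12 for Jak2 while replicates 1 and 3 are between 0.34 and 0.39.

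The STAT genes moved in opposite directions. Stat2 (gene 20847, chromosome 10, 128270498 to 128292853), the ISGF3 subunit, had 499, 503 and 490 CPM in KOSRC1 and 566, 622 and 634 CPM in KOCtrl. It was lower in all 3 knockout libraries, which differed from each other by less than the controls did, and fell 1.22-fold (log2 fold change -0.29, SE 0.0763, 95% interval -0.47 to -0.11, edgeR adjusted p = 0.0235). Stat2 had the highest mean of the 9 genes per transcript length in both groups, at 181, 141 and 174 TPM in KOSRC1 and 181, 193 and 205 TPM in KOCtrl. On that scale KOSRC1 replicate 1 lay just under KOCtrl replicate 1, and limma on log2(TPM + 1) did not call the gene (adjusted p = 0.144). Stat3 (gene 20848, chromosome 11, 100886806 to 100939594) had 291, 216 and 289 CPM in KOSRC1 and 208, 195 and 196 CPM in KOCtrl. It rose 1.33-fold (log2 fold change 0.41, SE 0.123, edgeR adjusted p = 0.0367), with KOSRC1 replicate 2 only slightly above the highest control. Its exons share 72 bases (0.76%) with Stat5a on the other strand.

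The calls of Stat2 and Stat3 were the least secure of the 5. Leaving out either KOSRC1 replicate 1 or KOSRC1 replicate 3, or either KOCtrl replicate 2 or KOCtrl replicate 3, took the Stat2 adjusted p to between 0.0609 and 0.116. Leaving out any library other than KOSRC1 replicate 2 took that of Stat3 to between 0.0945 and 0.129, whereas without KOSRC1 replicate 2 its log2 fold change was 0.54. Stat3 made up 36.7%, 29.9% and 36.9% of the summed Stat2 and Stat3 TPM in KOSRC1, and 26.7%, 23.7% and 23.5% in KOCtrl. All 3 knockout shares exceeded all 3 control shares, by a mean of 9.86 percentage points (exact permutation p = 0.1, the smallest possible).

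The inhibitors differed in their response. Socs1 (gene 12703, chromosome 16, 10783808 to 10785536), with the ISRE cores printed above, had 93.3, 120 and 102 CPM in KOSRC1 and 64.7, 72.5 and 67.1 CPM in KOCtrl. All knockout libraries were above all controls, and Socs1 rose 1.54-fold (log2 fold change 0.62, SE 0.109, 95% interval 0.37 to 0.88, edgeR adjusted p = 0.00478). In CPM, KOSRC1 replicate 2 was the highest knockout library for Socs1, but the lowest knockout library for Jak1, Jak2 and Stat3. In TPM it was the lowest knockout library for every gene examined, with Socs1 at 147, 145 and 155 TPM in replicates 1, 2 and 3. The FPKM values of KOSRC1 replicate 2 summed to 813814, against 670321 and 682320 in replicates 1 and 3. That sum is the divisor that turns FPKM into TPM, so it bears on every TPM value of a library. Its part in the TPM comparisons was not tested. The 38 other tested genes within 5 Mb of Socs1 had a median log2 fold change of 0.201, with 14 higher and 4 lower. Among all tested genes, 17.1% were called as higher and 18.5% as lower. How much of the Socs1 rise goes with the shift of its neighbours was not tested.

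Socs3 (gene 12702, chromosome 11, 117966079 to 117970336), whose window held the GAS match, had 28.4, 30.8 and 29.1 CPM in KOSRC1 and 28.5, 28.8 and 26.8 CPM in KOCtrl. The groups overlapped, and the 95% interval of the log2 fold change ran from -0.12 to 0.26 around 0.07 (SE 0.0817, edgeR adjusted p = 0.522). Per transcript length, Socs1 stood at 149 ± 5.58 TPM in KOSRC1 and 93.3 ± 4.04 TPM in KOCtrl, and Socs3 at 16.6 ± 1.69 TPM in KOSRC1 and 15.1 ± 0.412 TPM in KOCtrl (SD, n = 3 each). The Socs3 share of their sum was 10.7%, 9.14% and 10.1% in KOSRC1 and 14.8%, 13.5% and 13.6% in KOCtrl, without overlap (exact permutation p = 0.1).

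**Figure D4:**
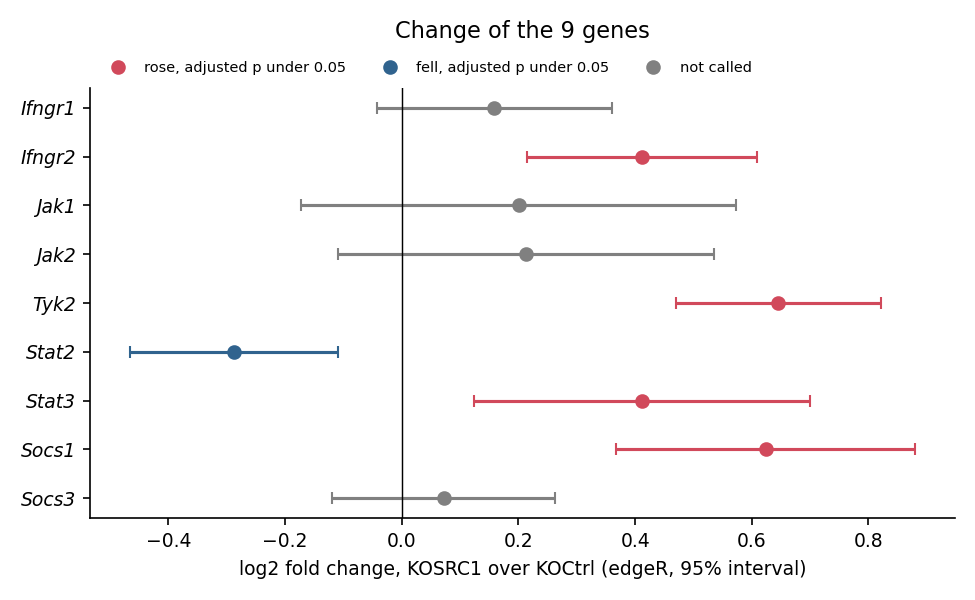
Log2 fold change of KOSRC1 over KOCtrl (x axis) with its 95% interval from edgeR for each gene (y axis); red rose, blue fell and grey was not called. The intervals of Ifngr2, Tyk2, Stat3 and Socs1 lie above 0 and that of Stat2 below 0, and Jak1 and Jak2 have wider intervals than Ifngr1 and Socs3.

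Ordered by TPM in the controls, the genes ran Stat2, Socs1, Stat3, Jak1, Ifngr2, Ifngr1, Jak2, Socs3 and Tyk2, with means of 193, 93.3, 62.9, 49.3, 40.3, 28.0, 22.1, 15.1 and 9.77 TPM. No neighbours in that order overlapped in their control libraries. The knockout means kept the order, at 165 TPM for Stat2, 149 for Socs1, 88.7 for Stat3, 58.8 for Jak1, 56.0 for Ifngr2, 32.7 for Ifngr1, 25.5 for Jak2, 16.6 for Socs3 and 15.9 for Tyk2. There the libraries of Stat2 and Socs1, Stat3 and Jak1, Jak1 and Ifngr2, Ifngr1 and Jak2, and Socs3 and Tyk2 overlapped. On the TPM scale the groups KOSRC1 and KOCtrl were apart for 4 of the 9 genes, against 45.9% of genes with a mean of at least 1 TPM.

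**Figure D5:**
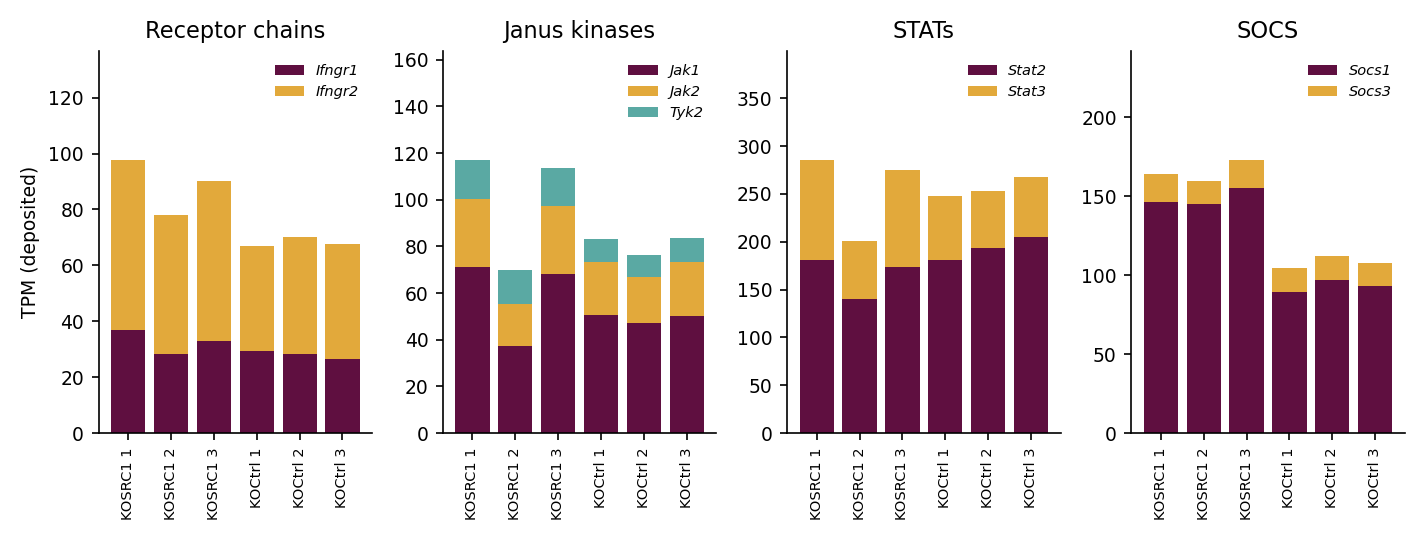
Deposited TPM (y axis) stacked by gene for the receptor chains, kinases, STATs and SOCS genes in each library (x axis), KOSRC1 left and KOCtrl right. The summed SOCS bars are higher in all 3 KOSRC1 libraries, almost wholly through Socs1, and the kinase bar of KOSRC1 replicate 2 is the lowest of the 6.

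Likeness between genes was measured as the Euclidean distance between log2 CPM profiles over the 6 libraries, each centred on its own mean. Among the 9, the closest pair was Jak1 and Jak2 (0.146), followed by Ifngr1 and Socs3 (0.170), Jak2 and Stat3 (0.262) and Tyk2 and Socs1 (0.266). The farthest was Stat2 from Tyk2 (1.15). Genes outside the 9 lay closer to each uncalled gene than any of the 9 did. They were Rbm27 to Jak1 (0.0337), Hcfc2 to Jak2 (0.0409), Vav2 to Ifngr1 (0.0914) and Aurka to Socs3 (0.0296). For the called genes, the closest other genes were Tnks1bp1 (0.0722) and Ccdc115 (0.0821) to Ifngr2, Gtse1 (0.0571) and Sh3bp5l (0.0622) to Tyk2, and Ewsr1 (0.0483) and Vkorc1l1 (0.0543) to Stat2. They were Apbb2 (0.0453) and Pls3 (0.0607) to Stat3, and Med16 (0.0902) and Ints9 (0.104) to Socs1.

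The wider JAK and STAT families gave 4 risen, 1 fallen and 5 not called of 10 tested genes, with a median log2 fold change of 0.207. The same fit called 17.1% of all tested genes as higher and 18.5% as lower. Beside Tyk2 and Stat3, the risen genes of these families were Stat5a and Stat6, which serves interleukin 4 signalling. Stat5b was not called (log2 fold change 0.09, edgeR adjusted p = 0.535). Stat6 had 134, 127 and 127 CPM in KOSRC1 and 107, 106 and 107 CPM in KOCtrl (1.21-fold, edgeR adjusted p = 0.0159), and Stat5a rose 1.32-fold (edgeR adjusted p = 0.0169). Leaving out KOSRC1 replicate 2 gave 8 risen of the 10, in a fit that called 34.6% of all genes as higher. Of 7 tested genes of the CIS-SOCS family, Socs1 was the only one called. The next by p-value, Socs5, had 33.9 ± 7.94 CPM in KOSRC1 and 26.2 ± 3.07 CPM in KOCtrl (SD, n = 3 each, edgeR adjusted p = 0.156), and without KOSRC1 replicate 2 the family had 3 risen genes.

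Other brakes on JAK-STAT signalling were mixed, with 3 risen, 2 fallen and 7 not called of 12 tested genes and a median of 0.189. For comparison, 17.1% of all tested genes were called as higher and 18.5% as lower. Usp18, which restrains the type I interferon receptor, had 60.8, 70.3 and 71.0 CPM in KOSRC1 and 131, 152 and 152 CPM in KOCtrl, a 2.16-fold fall (edgeR adjusted p = 0.00035). Pias3, an inhibitor of STAT3 binding to DNA, rose 1.66-fold, with 50.1 ± 0.545 CPM in KOSRC1 and 30.2 ± 2.71 CPM in KOCtrl (edgeR adjusted p = 0.00108, n = 3 each). Ptpn1, a tyrosine phosphatase that acts on JAK2 and TYK2, rose 1.30-fold. The other called members, named after their values were seen, were Pias1 (log2 fold change 0.43) and the phosphatase gene Ptpn2 (-0.26). Without KOSRC1 replicate 2 the counts were 7 risen and 3 fallen, where 34.6% of all genes were called as higher and 35% as lower. After length-GC correction they were 5 risen and 3 fallen, where 24.3% of all genes were called as higher and 25.6% as lower.

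The next list held subunits of cytokine receptors whose complexes signal through JAK1, JAK2 or TYK2. A listed subunit need not carry any of these kinases itself. The list gave 3 risen, 5 fallen and 4 not called of 12 tested, with a median of -0.027. The largest falls were in scarce transcripts. Il2rg, the common gamma chain, had 29 counts in the 3 KOSRC1 libraries together and 325 in the 3 KOCtrl libraries (log2 fold change -3.45, edgeR adjusted p = 0.000281), and Lifr, the leukaemia inhibitory factor receptor, had 34 counts in KOSRC1 and 140 in KOCtrl (-2.01, edgeR adjusted p = 0.00184). The growth hormone receptor gene Ghr rose to 37.5 ± 5.27 CPM in KOSRC1, against 22.3 ± 0.821 CPM in KOCtrl (SD, n = 3 each, edgeR adjusted p = 0.0032). The others called, named after their values were seen, were Il6ra (1.05) and Il11ra1 (0.40), both higher, and Osmr (-0.68), Il12rb2 (-1.50) and Il4ra (-0.40), all lower on the log2 scale. Leaving out KOSRC1 replicate 2 gave 5 risen and 5 fallen. That fit called 34.6% of all genes as higher and 35% as lower, against 17.1% and 18.5% with every library kept.

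Known target genes of these pathways were examined last. Of 12 genes known as STAT3 targets, 1 rose, 2 fell and 9 were not called, with a median of -0.119. Cebpd, a transcription factor gene, rose 1.45-fold (edgeR adjusted p = 0.0087), the oncogene Myc fell to 233 ± 3.32 CPM in KOSRC1, against 628 ± 37.3 CPM in KOCtrl (edgeR adjusted p = 4.42e-05, n = 3 each), and Osmr, the oncostatin M receptor, fell 1.60-fold. Without KOSRC1 replicate 2, 3 rose and 5 fell, and after length-GC correction 1 rose and 3 fell. Of 11 tested interferon gamma targets, 5 fell, Socs1 rose and 5 were not called, with a median of -0.382. Cd274, which encodes PD-L1, had 175, 169 and 168 CPM in KOSRC1 and 369, 437 and 428 CPM in KOCtrl (log2 fold change -1.27, SE 0.0866, edgeR adjusted p = 9.86e-05). The chemokine gene Cxcl10 and the adhesion gene Icam1 were at log2 fold changes of -0.79 and -1.02 (edgeR adjusted p = 0.000714 and 0.00062), and Irf1 (-0.79) and Irf9 (-0.53), named after their values were seen, were the others that fell. Without KOSRC1 replicate 2 the counts were 2 risen and 7 fallen, and after length-GC correction 2 risen and 6 fallen. Beside both target lists, 17.1% of all tested genes were called as higher and 18.5% as lower. These shares were 34.6% and 35% without KOSRC1 replicate 2, and 24.3% and 25.6% after length-GC correction.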

How the data were processed

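RNA was extracted with TRIzol and RNeasy and made into NEBNext Ultra libraries, per the labels' protocols. The deposited table gives read counts, FPKM and TPM per gene and library, per the file headers. Of the deposited counts, 88.9% are exactly whole, with no tolerance, so they were taken to be expected counts and rounded. HISAT2, StringTie, SAMtools and GRCm38.p6 appear in the submitters' processing notes; the sources used here do not say which program made the deposited values. The authors' group averages were not used.

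Genes were filtered with edgeR's filterByExpr (minimum count 10, total 15). KOSRC1 was compared with KOCtrl by edgeR 4.0.16 (R 4.3.3; TMM, robust quasi-likelihood, two-sided), with Benjamini-Hochberg adjustment over all 11656 genes. Alternatives used DESeq2 1.42.0 and limma 3.58.1 on log2(TPM + 1), among others; length and GC trends came from GENCODE transcripts (98% of tested genes). The fits were tested on simulated data. Coordinates are from RefSeq on GRCm38.p6.

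Replicates are not stated to come from separate cultures, so p-values measure the spread between these libraries, which may be technical. Members and gene lists were chosen with earlier results of these data known. From each list, the 3 called genes outside the 9 with the smallest adjusted p, or the one with the smallest p, were named. Shares of TPM were compared by exact permutation of the libraries.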

Additional observations from a re-analysis of the deposited data

How the results depend on the processing

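Ifngr2, Tyk2 and Socs1 were called as higher under all 19 alternatives, with log2 fold changes of 0.36 to 0.47, 0.54 to 0.70 and 0.52 to 0.70. Stat3 was called in 10 and Stat2 in 12 of the 19, and no gene of the 9 changed sign. Jak1 and Jak2 were called only without KOSRC1 replicate 2, Ifngr1 only with length and GC trends removed (with or without the block), and Socs3 in none. Counts of the 9 that rose ran from 3 to 6 and of those that fell from 0 to 1 when 1 library was left out (0 without KOSRC1 replicate 1, KOSRC1 replicate 3, KOCtrl replicate 2 or KOCtrl replicate 3, but 1 in each at an unadjusted p under 0.05). The fallen count was 0 in limma on log2(TPM + 1), with or without a filter, and on log2(TPM + 0.1), where it was also 0 at an unadjusted p under 0.05, against 1 by edgeR and DESeq2. On log2(TPM + 1), 28.2% of genes were called, and 3 of the 9 rose. With length and GC trends removed, 49.9% were called, and 5 of the 9 rose and 1 fell. Genes called in all ran from 2406 (without KOCtrl replicate 2) to 8208 (without KOSRC1 replicate 2), against 4157. Without KOCtrl replicate 1 there were 2576, and without KOCtrl replicate 3 there were 2409. The counts of each gene list without KOSRC1 replicate 2 and after length-GC correction, given beside each list, were added after the data were seen. For these changes the cause was not tested. With the replicate number as a block, 4337 genes were called and none of the 9 calls changed. Same-numbered libraries deviated together at 0.161, 0.261 and 0.0401 for numbers 1, 2 and 3. KOSRC1 replicates 1 and 2 each correlated best with the control of the same number, and KOSRC1 replicate 3 with KOCtrl replicate 1 (0.186). The labels do not say that a number pairs libraries, so the numbers were not taken to pair them. With 1 library left out, the differences in TPM share, in percentage points, ran from -5.18 to -2.84 for Ifngr1, -4.22 to -0.50 for Jak1, 2.33 to 5.62 for Tyk2, -2.06 to -1.40 for Jak2, 8.65 to 12.2 for Stat3 and -4.32 to -3.55 for Socs3. None of these differences changed sign when a library was left out. Within a library, TPM and FPKM differ only by a common factor. The shares are therefore the same on both scales by construction, and FPKM in place of TPM gave no separate check. Depth limits the scarce genes most, with Il2rg at 29 counts over the KOSRC1 libraries.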
